A study of Mus musculus with 6 samples.

Results

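Ligands and receptors of the tumor necrosis factor (TNF) family were followed in RNA-Seq libraries from chronic stroke infarcts and contralateral cortices of mice. Members were protein-coding genes whose symbol begins with *Tnfsf* or *Tnfrsf* and a digit, plus *Tnf*, *Lta*, *Ltb*, *Ltbr*, *Fas*, *Fasl*, *Cd27*, *Cd70*, *Cd40*, and *Cd40lg*. No measured value entered this rule, which found 41 of the 46078 gene identifiers in the count tables, of which 17 are ligands and 24 are receptors. By role the receptors are 5 with a death domain, 15 that bind TRAF adaptors and have no death domain, and 4 decoys or receptors lacking a death domain.

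TNF family ligands are mostly trimeric type II membrane proteins, and several of them, TNF among them, are also released from the cell surface by metalloproteases. They cluster receptors that recruit TRAF or death domain adaptors, and the outcome ranges from NF-κB activation and survival to caspase-dependent death or necroptosis. Several pairs govern lymphocyte costimulation, B cell survival, and lymphoid tissue organization. In injured brain, microglia and infiltrating myeloid cells are known sources of TNF, TNFR1 is broadly expressed, and TNFR2 is found mainly on immune, glial, and endothelial cells.

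All 6 libraries were from wild-type C57BL/6J mice recorded as 3 months of age, with a time point of 7 weeks, and consist of 3 stroke infarcts and 3 contralateral cortices. Per the paper's methods, stroke was induced in males by distal middle cerebral artery occlusion followed by hypoxia, and the infarct was dissected by eye after perfusion. The contralateral cortex is therefore tissue from an injured animal and not from an animal without stroke. The labels do not say which infarct and cortex share a mouse or that each library is a separate mouse, so *p* values measure the spread between these libraries. Counts assigned to genes were 12146959 to 13427057 per infarct library and 11943570 to 19933962 per contralateral library.

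The tissue labels were checked with marker genes, given in CPM, read counts relative to TMM-scaled library size, and summed over each list. The 5 neuronal markers summed to 428 to 1134 CPM in infarcts, against 6675 to 7742 CPM in contralateral cortices. The 5 fibroblast markers summed to 4659 to 5776 CPM in infarcts, against 132 to 168 CPM in contralateral cortices, and the 6 macrophage markers to 734 to 1106 CPM and 30.3 to 37.9 CPM. Marker levels of several cell types thus differed between the tissues, and in bulk tissue fewer cells of a type and less RNA per cell cannot be told apart. The part of cell composition in the differences below was not tested.

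Of the 41 members, 24 were called higher in infarcts and none was called lower. Called means a fold change beyond 2 with an adjusted *p* under 0.05, by the quasi-likelihood test of edgeR and Benjamini-Hochberg adjustment across the 15554 genes tested. The other members were 5 that were tested and not called and 12 with too few counts to be tested. Among all genes tested, 25.7% were called higher and 20.9% lower. A member that passed the count filter through its infarct libraries alone had to be higher there, so the share among tested members is not used. Without a filter, 33 of 41 members were called higher, against 17.3% of 27012 genes (13.4% lower), and with DESeq2 also 33, against 21.7% of 20432 genes (17.4% lower).

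For the absence of lower calls, 1 member was lower at an unadjusted *p* under 0.05 by edgeR (*Tnfrsf19*) and 0 with a fold change beyond 2, and DESeq2 and limma voom also called 0. Across all genes tested, 30.8% were lower and 34.2% higher when no fold change was required, and 19.7% to 22.7% were called lower with 1 library left out. The mean CPM was higher in infarcts for 38 of 41 members. For 32 of 41 members, 23 of them among the 29 tested, every infarct library was above every contralateral library. For 1 member, *Tnfrsf19*, which was tested, every infarct library was below. Over all genes tested, 37.6% had infarct libraries wholly above and 34.7% wholly below, 72.3% in all.

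**Figure D1:**
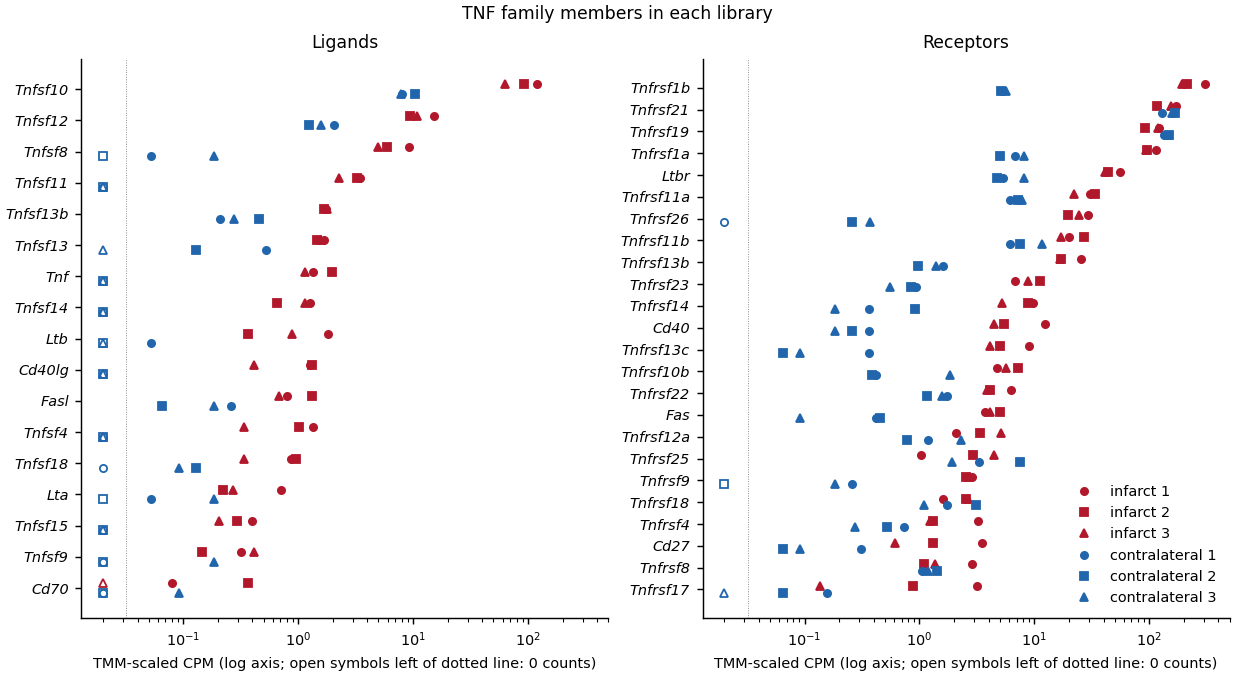
TMM-scaled CPM (log axis) of the 17 ligands (left) and 24 receptors (right), with 1 symbol per library, infarct and contralateral cortex in separate colors; open symbols left of the dotted line had 0 counts. *Tnfrsf1b* reached 192 to 307 CPM in infarcts against 5.13 to 5.62 CPM in contralateral cortices, *Tnfrsf21* and *Tnfrsf19* were at or above 91.8 CPM in both regions, and 6 ligands had 0 counts in every contralateral library.

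Most ligands had few or no counts in contralateral cortices. Of the 17, 12 had no more than 3 counts in each contralateral library, against 1 of 24 receptors (*Tnfrsf17*), and 6 had 0 in all of them: *Tnf*, *Tnfsf11*, *Cd40lg*, *Tnfsf14*, *Tnfsf15*, and *Tnfsf4*. The 7 ligands that could be tested were called higher, which says little by itself because several passed the count filter through their infarct libraries alone. *Tnf*, the founding cytokine of the family (chr17:35199381-35202007, minus strand, GRCm38), had 17, 27, and 17 counts in the 3 infarcts. Its adjusted *p* was 0.000283 by edgeR, for a level at least 7.15-fold higher. Its chromosome neighbors *Lta* and *Ltb*, 1157 and 3060 bases away, were also low in every library.

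*Tnfsf11* encodes RANKL, the osteoclast differentiation factor also made by activated lymphocytes (chr14:78277445-78308043, minus strand). It had 43, 44, and 33 counts in infarcts and 0 in each contralateral cortex, so the regions were fully apart. Set against a floor of 3 counts in each contralateral library, it was at least 14.2-fold higher (edgeR adjusted *p* = 6.23e-05). *Tnfsf8* (CD30 ligand) had 116, 81, and 73 counts in infarcts and 1, 0, and 2 in contralateral cortices. Its ratio was 100, with a 95% interval of 33.8 to 488 that covers counting error only. Its fitted log2 fold change was 6.47, and 7.50 without contralateral replicate 3.

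The most abundant ligand was *Tnfsf10* (TRAIL, which engages death receptor 5; chr3:27317028-27342427, plus strand). It measured 120, 93.1, and 63.4 CPM in infarcts, against 8.08, 10.5, and 7.83 CPM in contralateral cortices. The lowest infarct was thus far above the highest contralateral cortex, with a log2 fold change of 3.39 ± 0.26 (SE; edgeR adjusted *p* = 3.47e-06). *Tnfsf12* (TWEAK) measured 15.3, 9.31, and 10.8 CPM in infarcts, against 2.03, 1.23, and 1.57 CPM in contralateral cortices (log2 fold change 2.85 ± 0.30, edgeR adjusted *p* = 2.43e-05).

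The B cell survival factors *Tnfsf13* (APRIL) and *Tnfsf13b* (BAFF) were both upregulated at low counts. *Tnfsf13b* had 22, 23, and 26 counts in infarcts and 4, 7, and 3 in contralateral cortices (log2 fold change 2.45 ± 0.45, edgeR adjusted *p* = 0.000971). *Tnfsf13* had 21, 20, and 23 counts in infarcts and 10, 2, and 0 in contralateral cortices (log2 fold change 2.60 ± 0.68, edgeR adjusted *p* = 0.00693). The contralateral libraries were unequal for *Tnfsf13*, and without contralateral replicate 1 its log2 fold change was 4.22. *Tnfsf13* shares 60.0% and *Tnfsf12* 48.3% of exon bases on the same strand with the readthrough gene *Tnfsfm13*, so the counts of both are uncertain. Of the exon bases of *Tnfsf13*, 13.5% also lie under *Tnfsf13os* on the other strand. That gene had 8, 19, and 12 counts in infarcts and 0, 5, and 4 in contralateral cortices. *Tnfsfm13* itself received at most 9 counts in a library.

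The 10 ligands below the filter were all higher on average in infarcts, and none exceeded 23 counts in a library. *Cd40lg*, the T cell ligand of CD40, had 16, 18, and 6 counts in infarcts and *Tnfsf14* (LIGHT) had 16, 9, and 17, both against 0 in each contralateral cortex. At the floor of 3 counts these were at least 4.78-fold and at least 4.92-fold higher. *Tnfsf4* (OX40 ligand) had 17, 14, and 5 counts and *Tnfsf15* (TL1A) had 5, 4, and 3, again against 0, and were at least 4.33-fold and at least 1.43-fold higher. The infarct and contralateral libraries of these 4 ligands did not overlap.

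*Fasl* (Fas ligand) had 10, 18, and 10 counts in infarcts and 5, 1, and 2 in contralateral cortices. *Tnfsf18* (GITR ligand) had 11, 13, and 5 counts against 0, 2, and 1, a ratio of 10.7 (95% counting interval 3.33 to 55.1). *Ltb* (lymphotoxin β) had 23, 5, and 13 counts against 1, 0, and 0, a ratio of 45.5 (7.73 to 1842). Infarct and contralateral libraries were apart for all 3 of these ligands. *Lta* (lymphotoxin α) had 9, 3, and 4 counts against 1, 0, and 2, a ratio of 5.92 (1.70 to 31.7). *Tnfsf9* (4-1BB ligand) had 4, 2, and 6 counts against 0, 0, and 2, and *Cd70* had 1, 5, and 0 counts against 0, 0, and 1. Of the exon bases of *Tnfsf9*, 14.9% lie under *Gm11110* on the other strand, and 34 of the 41 members share no exon bases with another gene. *Lta*, *Tnfsf9*, and *Cd70* were the only untested members that were also not called without a filter.

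The receptors of TNF itself had among the largest changes at high counts. *Tnfrsf1b*, which encodes TNFR2 and has no death domain (chr4:145213463-145246870, minus strand), measured 307, 213, and 192 CPM in infarcts, against 5.16, 5.13, and 5.62 CPM in contralateral cortices. Contralateral libraries were nearly equal and all infarcts were far above them. The means were 237 ± 61.7 CPM and 5.31 ± 0.272 CPM (SD, n = 3 each), with a log2 fold change of 5.48 ± 0.23 (edgeR adjusted *p* = 1.64e-07). *Tnfrsf1a*, which encodes the death domain receptor TNFR1 (chr6:125349362-125362484, plus strand), measured 115, 96.3, and 94.0 CPM in infarcts, against 6.78, 5.07, and 8.11 CPM in contralateral cortices. The regions were again apart, with a log2 fold change of 3.94 ± 0.21 (edgeR adjusted *p* = 4.00e-07).

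Per kilobase of exon, the order of these 2 receptors was opposite in the 2 regions. The ratio of *Tnfrsf1b* to *Tnfrsf1a* CPM per kilobase was 1.82, 1.50, and 1.38 in infarcts and 0.517, 0.687, and 0.470 in contralateral cortices. Every infarct had more *Tnfrsf1b* per kilobase and every contralateral cortex more *Tnfrsf1a*. The contralateral order depends on the annotated exon lengths, 3818 bases for *Tnfrsf1b* and 2591 for *Tnfrsf1a*. In CPM, contralateral cortices had 5.16, 5.13, and 5.62 of *Tnfrsf1b*, against 6.78, 5.07, and 8.11 of *Tnfrsf1a*. The mean ratios were 1.57 ± 0.225 and 0.558 ± 0.114 (SD, n = 3 each; two-sided exact permutation *p* = 0.1, the smallest that 3 against 3 allows, and 0.125 after Benjamini-Hochberg adjustment over 5 ligand or receptor ratios).

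**Figure D2:**
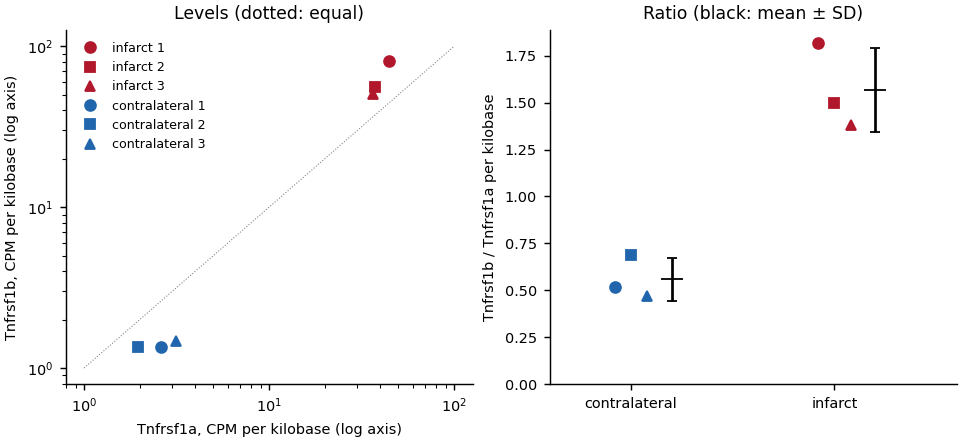
Left, *Tnfrsf1b* against *Tnfrsf1a* in CPM per kilobase of exon (log axes), 1 symbol per library, with a dotted line of equal levels; right, the ratio in each library with mean ± SD in black. Infarct ratios were 1.38 to 1.82 and contralateral ratios 0.470 to 0.687, on opposite sides of equality at the annotated exon lengths.

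Of the other death domain receptors, 2 were upregulated and 2 were not called, where 25.7% of all genes tested were called higher. The 2 upregulated receptors, *Fas* and *Tnfrsf10b*, would not have passed the count filter on their contralateral libraries, so this count says little by itself. *Fas*, the receptor of Fas ligand, had 47, 68, and 60 counts in infarcts and 8, 7, and 1 in contralateral cortices (log2 fold change 3.60 ± 0.45, edgeR adjusted *p* = 7.74e-05). *Tnfrsf10b*, the mouse TRAIL receptor, had 59, 99, and 84 counts in infarcts and 8, 6, and 20 in contralateral cortices (log2 fold change 2.85 ± 0.54, edgeR adjusted *p* = 0.00124). Both were apart between regions, and the value for *Tnfrsf10b* was 3.84 without contralateral replicate 3, its highest contralateral library.

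*Tnfrsf21* (death receptor 6, expressed by neurons and oligodendrocyte lineage cells; chr17:43016555-43089189, plus strand) measured 170, 116, and 154 CPM in infarcts, against 130, 168, and 158 CPM in contralateral cortices. The regions overlapped, and the log2 fold change was -0.05 ± 0.18 (edgeR adjusted *p* = 0.806). Scaling by library totals alone, which shifts the median over all genes by 0.20 on the log2 scale, turned it to 0.15, and it also turned to 0.11 without infarct replicate 2 and to 0.017 without contralateral replicate 2. *Tnfrsf25* (death receptor 3) had 13, 40, and 65 counts in infarcts and 63, 116, and 21 in contralateral cortices, with overlap and unequal libraries in both regions. Its log2 fold change was -0.60 ± 0.60 (edgeR adjusted *p* = 0.400), and 0.081 without contralateral replicate 2.

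Of the 15 TRAF-binding receptors, *Tnfrsf1b* included, 10 were called higher, 3 were not called, and 2 were not tested, where 25.7% of all genes tested were called higher. Of these 10, *Cd40*, *Tnfrsf13c*, *Tnfrsf14*, *Tnfrsf9*, *Tnfrsf4*, and *Tnfrsf12a* would not have passed the count filter on their contralateral libraries. The count of calls therefore says little by itself. *Ltbr*, the lymphotoxin β receptor that directs lymphoid tissue organization, measured 55.3, 44.0, and 41.6 CPM in infarcts, against 5.37, 4.74, and 8.11 CPM in contralateral cortices. Its regions were apart, with a log2 fold change of 2.96 ± 0.24 (edgeR adjusted *p* = 4.21e-06). *Tnfrsf14* (HVEM, which shares LIGHT with *Ltbr*) had 122, 119, and 77 counts in infarcts and 7, 14, and 2 in contralateral cortices (log2 fold change 3.95 ± 0.48, edgeR adjusted *p* = 6.16e-05), and 4.70 without contralateral replicate 2.

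*Cd40*, the costimulatory receptor of B cells and myeloid cells, had 156, 74, and 66 counts in infarcts and 7, 4, and 2 in contralateral cortices (log2 fold change 4.67 ± 0.54, edgeR adjusted *p* = 4.46e-05). *Tnfrsf13c*, the BAFF receptor, had 114, 68, and 60 counts in infarcts and 7, 1, and 1 in contralateral cortices (log2 fold change 4.90 ± 0.58, edgeR adjusted *p* = 5.33e-05), and 6.13 without contralateral replicate 1. For both genes infarct replicate 1 was the highest, and all infarcts were above all contralateral cortices. *Tnfrsf13b* (TACI, a receptor of BAFF and APRIL) measured 25.6, 17.2, and 16.8 CPM in infarcts, against 1.62, 0.975, and 1.38 CPM in contralateral cortices (log2 fold change 3.89 ± 0.29, edgeR adjusted *p* = 2.49e-06).

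*Tnfrsf9* (4-1BB) had 36, 35, and 40 counts in infarcts and 5, 0, and 2 in contralateral cortices (log2 fold change 4.08 ± 0.61, edgeR adjusted *p* = 0.000258), and 4.95 without contralateral replicate 1. *Tnfrsf4* (OX40) had 41, 18, and 18 counts in infarcts and 14, 8, and 3 in contralateral cortices (log2 fold change 1.83 ± 0.55, edgeR adjusted *p* = 0.0141). The regions were apart for both, but the *Tnfrsf4* call was lost without infarct replicate 1 (adjusted *p* = 0.0592), contralateral replicate 2 (0.0510), or contralateral replicate 3 (0.0531). *Tnfrsf4* lies 9551 bases from *Tnfrsf18*.

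*Tnfrsf18* (GITR) had 20, 35, and 39 counts in infarcts and 33, 48, and 12 in contralateral cortices, which overlapped. Its log2 fold change was 0.18 ± 0.43 (edgeR adjusted *p* = 0.726), and -0.082 without contralateral replicate 3. Of its exon bases, 27.2% lie under *Gm16008* on the other strand, and the strand setting of the counting is not given in the sources used here. *Tnfrsf8* (CD30), the receptor of *Tnfsf8*, had 36, 15, and 20 counts in infarcts and 20, 22, and 13 in contralateral cortices. These overlapped, with a log2 fold change of 0.53 ± 0.45 (edgeR adjusted *p* = 0.323). *Tnfrsf8* lies 20266 bases from *Tnfrsf1b* on chromosome 4.

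Among receptors known from non-lymphoid tissue, *Tnfrsf11a* (RANK) measured 30.7, 33.8, and 22.0 CPM in infarcts, against 6.10, 7.21, and 7.74 CPM in contralateral cortices. The regions were apart (log2 fold change 2.04 ± 0.21, edgeR adjusted *p* = 2.43e-05). *Tnfrsf12a* (Fn14, the TWEAK receptor) had 26, 46, and 75 counts in infarcts and 23, 12, and 25 in contralateral cortices (log2 fold change 1.35 ± 0.48, edgeR adjusted *p* = 0.0303). CPM ranges overlapped, and the call was lost without infarct replicate 2 (adjusted *p* = 0.0549), infarct replicate 3 (0.102), contralateral replicate 1 (0.107), or contralateral replicate 2 (0.117).

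*Tnfrsf19* (TROY, a partner of the Nogo receptor complex; chr14:60963875-61046490, minus strand) measured 122, 91.8, and 119 CPM in infarcts, against 133, 147, and 145 CPM in contralateral cortices. Every infarct was below every contralateral cortex, yet the log2 fold change of -0.36 ± 0.15 did not pass (edgeR adjusted *p* = 0.0616). The 5 astrocyte markers did not move together, with 1 called higher, 1 called lower, and 3 not called. Their sum of 4031 to 5974 CPM in infarcts, against 12951 to 14000 CPM in contralateral cortices, was carried by *Slc1a2* (means of 2927 and 12275 CPM), while *Aqp4* was higher in infarcts (1030 and 322 CPM). Their part in the *Tnfrsf19* values was not tested.

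The 4 decoys or receptors lacking a death domain were all called higher, where 25.7% of all genes tested were called higher. Among them, *Tnfrsf26* passed the count filter through its infarct libraries alone, and *Tnfrsf23* would not have passed it on its contralateral libraries. *Tnfrsf26*, a mouse receptor without a death domain (chr7:143607659-143628722, minus strand), had 370, 270, and 362 counts in infarcts and 0, 4, and 4 in contralateral cortices. This gap gave the largest log2 fold change of any receptor, 7.03 ± 0.51 (edgeR adjusted *p* = 3.60e-06), which was 6.27 without contralateral replicate 1 and 7.61 without contralateral replicate 3. *Tnfrsf23* and *Tnfrsf22*, decoy TRAIL receptors, follow it on chromosome 7, with 6083 bases between *Tnfrsf26* and *Tnfrsf22* and 16147 between *Tnfrsf22* and *Tnfrsf23*.

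*Tnfrsf23* had 85, 152, and 130 counts in infarcts and 18, 13, and 6 in contralateral cortices (log2 fold change 3.47 ± 0.33, edgeR adjusted *p* = 1.18e-05). *Tnfrsf22* had 78, 56, and 57 counts in infarcts and 33, 18, and 17 in contralateral cortices (log2 fold change 1.66 ± 0.33, edgeR adjusted *p* = 0.00147). Both were apart between regions in CPM. *Tnfrsf22* and *Tnfrsf23* are close paralogs, so reads that fit both could be lost or split. *Tnfrsf11b*, the soluble decoy osteoprotegerin that binds RANKL and TRAIL, measured 20.1, 27.2, and 17.1 CPM in infarcts, against 6.10, 7.47, and 11.6 CPM in contralateral cortices (log2 fold change 1.37 ± 0.27, edgeR adjusted *p* = 0.00161).

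**Figure D3:**
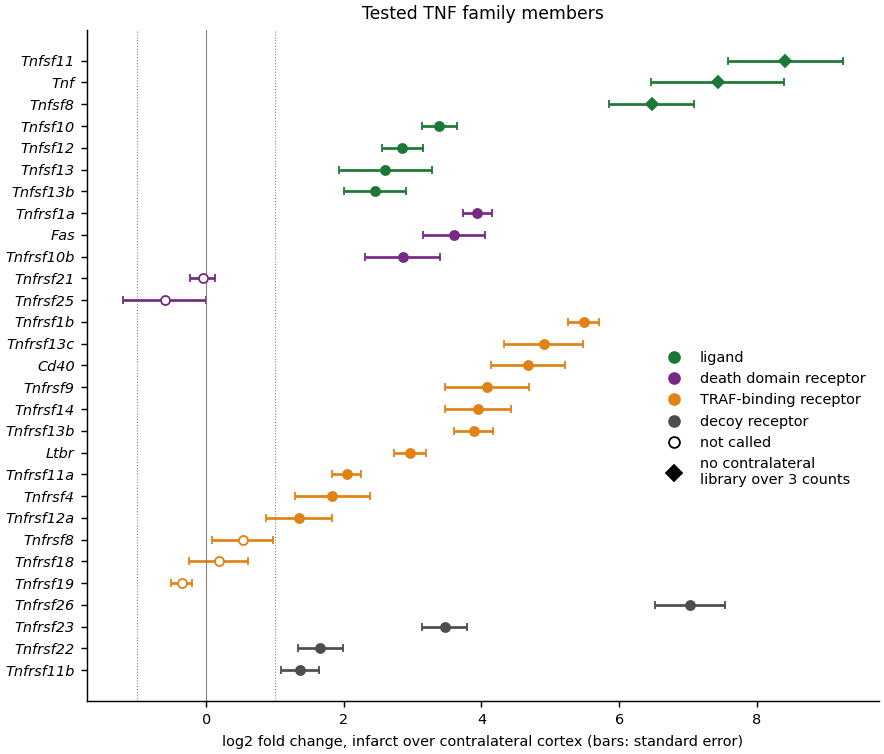
Log2 fold change of the 29 tested members by role, infarct over contralateral cortex, with bars of 1 standard error; filled symbols were called higher, open symbols were not called, dotted lines mark a 2-fold difference, and diamonds mark ligands with no contralateral library over 3 counts, whose fitted values depend on the prior count. Called values ran from 1.35 (*Tnfrsf12a*) upward, and the 5 open symbols lie between -0.60 and 0.53.

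Ligands were also set beside the receptors they are known to bind, in 25 pairs that cover all 17 ligands and 19 receptors. Both partners were called higher in 10 pairs, among them *Tnf* with both of its receptors, *Tnfsf10* with *Tnfrsf10b*, *Tnfsf11* with *Tnfrsf11a*, and *Tnfsf13b* with *Tnfrsf13b* and *Tnfrsf13c*. *Tnf* and *Tnfsf11*, with 0 counts in every contralateral library, passed the count filter through their infarct libraries alone and could only be called higher. *Tnfsf13*, *Tnfsf13b*, *Tnfrsf13c*, *Tnfrsf10b*, and *Tnfrsf12a* would also not have passed it on their contralateral libraries. Of these 10 pairs, only *Tnfsf10* with *Tnfrsf11b* holds no such gene, so the count of pairs says little by itself. Genes recur across pairs, so the pairs are not independent, and 25.7% of all genes tested were called higher. In 9 pairs the receptor was called higher and the ligand was not tested. In 1 pair, *Tnfsf8* with *Tnfrsf8*, the ligand was called higher and the receptor was not called. The 2 pairs with an untested ligand and a receptor not called were *Tnfsf15* with *Tnfrsf25* and *Tnfsf18* with *Tnfrsf18*.

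Within the RANK system, the ratio of *Tnfrsf11a* to its decoy counterpart *Tnfrsf11b* in CPM per kilobase was 0.636 ± 0.0717 in infarcts and 0.413 ± 0.0863 in contralateral cortices (SD, n = 3 each; two-sided exact permutation *p* = 0.1, adjusted 0.125). The ligand *Tnfsf11* stood at 0.214, 0.149, and 0.166 of *Tnfrsf11b* per kilobase in infarcts and at 0 in contralateral cortices. The ratio of *Tnfsf10* to *Tnfrsf10b* per kilobase was 17.1 ± 8.23 in infarcts and 17.4 ± 11.9 in contralateral cortices (SD, n = 3 each; exact permutation *p* = 0.9), a spread too wide to separate the regions. The ratio of *Tnfsf12* to *Tnfrsf12a* was 5.21 ± 3.67 in infarcts, against 1.68 ± 0.710 in contralateral cortices (SD, n = 3 each; exact permutation *p* = 0.1, adjusted 0.125). The ratio of *Tnfrsf13b* to *Tnfrsf13c* was 2.04, 2.49, and 2.97 in infarcts, against 3.20, 10.8, and 10.8 in contralateral cortices (exact permutation *p* = 0.1, adjusted 0.125). The last rests on 1 count of *Tnfrsf13c* in each of 2 contralateral libraries.

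Per kilobase, the family was dominated by different receptors in the 2 regions. The summed level of all 41 members was 323, 246, and 238 CPM per kilobase in infarcts and 79.1, 92.9, and 90.8 CPM per kilobase in contralateral cortices. *Tnfrsf21* and *Tnfrsf19* together made up 75.5%, 77.6%, and 76.1% of that sum in contralateral cortices and 20.8%, 19.3%, and 26.2% in infarcts. *Tnfrsf1a* and *Tnfrsf1b* together made up 4.54% ± 0.858 in contralateral cortices and 37.5% ± 1.19 in infarcts (SD, n = 3 each). The share of the 17 ligands was 3.69% ± 0.578 in contralateral cortices and 12.8% ± 1.54 in infarcts. These shares are descriptions and depend on the annotated exon lengths.

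By mean level per kilobase in infarcts, the order was *Tnfrsf1b* at 62.1, *Tnfrsf1a* at 39.3, *Tnfrsf21* at 35.7, *Tnfrsf19* at 23.4, *Ltbr* at 19.9, and *Tnfsf10* at 17.5 CPM per kilobase. *Tnfsf12*, *Tnfrsf26*, *Tnfrsf11b*, and *Tnfrsf13b* came next, between 7.00 and 7.78 CPM per kilobase.

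**Figure D4:**
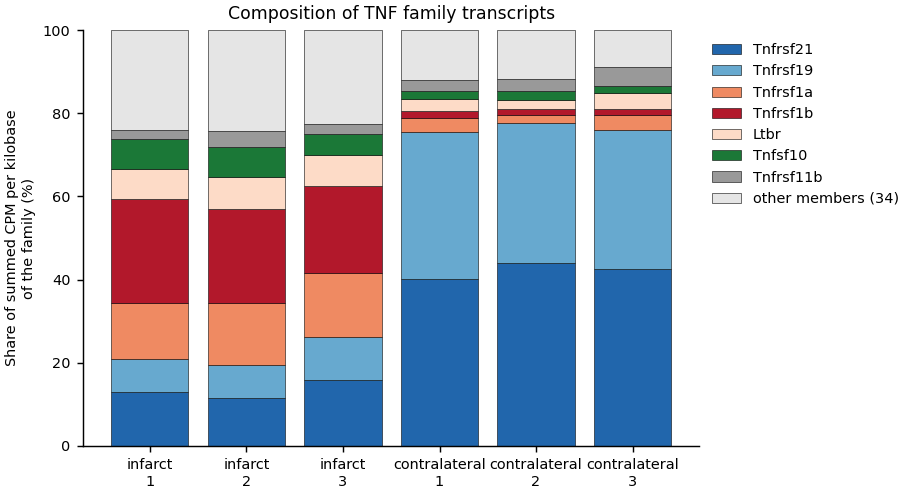
Share of the family's summed CPM per kilobase of exon (%) in each of the 6 libraries, with 7 members shown and the rest pooled. *Tnfrsf21* and *Tnfrsf19* (blue) fill 75.5% to 77.6% of each contralateral bar and 19.3% to 26.2% of each infarct bar.

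Transcripts of the pathway that these receptors signal through were read from a list of 43 genes, all of which were tested. Of these, 28 were called higher, 1 was called lower, and 14 were not called, with a median log2 fold change of 1.45. Over all genes tested, 25.7% were called higher and 20.9% lower, with a median of 0.03, and the counts by group below are read against the same shares. In these counts, *Mlkl* and *Ripk3* passed the count filter through their infarct libraries alone. *Traf1* and *Fadd* would not have passed it on their contralateral libraries. Of the 8 NF-κB subunits and inhibitors 7 were called higher, the exception being *Nfkbib* (0.33 ± 0.26 on the log2 scale, edgeR adjusted *p* = 0.286). *Nfkb2*, the noncanonical precursor, had 408, 304, and 293 counts in infarcts and 19, 17, and 11 in contralateral cortices (log2 fold change 4.57 ± 0.27, edgeR adjusted *p* = 6.99e-07), and 18.1% of its exon bases lie under 2 genes on the other strand.

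All 6 caspase and necroptosis genes were called higher, though *Mlkl* passed the count filter through its infarct libraries alone. *Mlkl*, the necroptosis effector, had 131, 98, and 83 counts in infarcts and 0, 3, and 0 in contralateral cortices, a ratio of 115 (95% counting interval 39.2 to 563). Its upstream kinase *Ripk3* had 54, 61, and 44 counts in infarcts and 0 in each contralateral cortex, and was at least 18.7-fold higher at the floor of 3 counts per library (edgeR adjusted *p* = 3.58e-05). Both were fully apart between regions. The related kinase *Ripk1* had a log2 fold change of 3.45 ± 0.20 (edgeR adjusted *p* = 6.99e-07), and *Casp8*, the initiator caspase of death receptors, 3.62 ± 0.26 (adjusted *p* = 1.89e-06).

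Of the 8 adaptors 5 were called higher. *Traf1*, itself an NF-κB target, had 306, 249, and 195 counts in infarcts and 23, 1, and 2 in contralateral cortices (log2 fold change 5.07 ± 0.66, edgeR adjusted *p* = 0.000301). *Traf3* did not pass (0.13 ± 0.14, adjusted *p* = 0.453), and *Traf4* and *Traf6* changed by less than 2-fold. Of the 10 kinases 4 were called higher. Of the 6 others, *Ikbkb* (log2 fold change 0.85 ± 0.18, edgeR adjusted *p* = 0.00203), *Chuk* (0.57 ± 0.22, 0.0418), and *Tab3* (-0.73 ± 0.14, 0.00146) passed the adjusted *p* but not the fold threshold, and *Ikbkg* (0.03 ± 0.15), *Map3k7* (0.21 ± 0.17), and *Tab1* (0.17 ± 0.21) passed neither. Both sheddases were called higher, and *Adam17*, which releases TNF and its receptors from the membrane, measured 171 ± 27.1 CPM in infarcts, against 22.4 ± 1.95 CPM in contralateral cortices (SD, n = 3 each; edgeR adjusted *p* = 6.14e-07).

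Of the 9 ubiquitin regulators 4 were called higher and 1 lower. *Birc3* (cIAP2) had a log2 fold change of 3.97 ± 0.31 (edgeR adjusted *p* = 6.77e-06), and *Tnfaip3* (A20, which terminates NF-κB signaling) 2.89 ± 0.24 (adjusted *p* = 5.99e-06). *Cyld*, a deubiquitinase of the same pathway, was the single downregulated gene, at 222 ± 19.0 CPM in infarcts, against 480 ± 31.9 CPM in contralateral cortices (SD, n = 3 each). Its level fell by 1.11 on the log2 scale (SE 0.15, edgeR adjusted *p* = 0.000118), close to the 2-fold threshold, and it was not called lower when libraries were scaled by totals alone.

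Promoters were searched for the NF-κB consensus motif on both strands, overlapping matches counted, in RefSeq windows (GRCm38.p6) of 300 bases, 250 before and 50 after each annotated start. Windows were found for 31 members and not for *Cd40*, *Tnfsf12*, *Cd40lg*, *Tnfrsf10b*, *Cd70*, *Tnfrsf26*, *Tnfsf9*, *Tnfsf4*, *Tnfrsf11b*, and *Tnfrsf22*. The motif was found in 3 of 31 members (9.68%), against 5.14% of all 27025 genes with a window, and in 8.03% of all genes called higher. The 3 windows are printed because they are the only ones among the members with a match, which is in capitals. *Ltb* lies at chr17:35194257-35194556 on the plus strand, *Tnfrsf8* at chr4:145315115-145315414 on the minus strand, and *Tnfrsf9* at chr4:150927749-150928048 on the plus strand, where 3 matches overlap.
Ltb: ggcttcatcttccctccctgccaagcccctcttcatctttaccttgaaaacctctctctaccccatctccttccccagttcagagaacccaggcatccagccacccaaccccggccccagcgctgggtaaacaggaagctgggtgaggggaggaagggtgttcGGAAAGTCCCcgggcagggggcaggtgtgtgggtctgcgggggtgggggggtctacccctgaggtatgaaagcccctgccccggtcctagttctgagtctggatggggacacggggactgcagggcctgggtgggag
Tnfrsf8: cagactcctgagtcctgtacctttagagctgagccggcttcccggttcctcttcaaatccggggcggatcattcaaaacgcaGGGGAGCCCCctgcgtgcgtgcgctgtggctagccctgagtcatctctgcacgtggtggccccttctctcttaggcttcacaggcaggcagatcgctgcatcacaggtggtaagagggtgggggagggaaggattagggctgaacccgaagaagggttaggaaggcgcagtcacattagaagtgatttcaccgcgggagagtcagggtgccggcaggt
Tnfrsf9: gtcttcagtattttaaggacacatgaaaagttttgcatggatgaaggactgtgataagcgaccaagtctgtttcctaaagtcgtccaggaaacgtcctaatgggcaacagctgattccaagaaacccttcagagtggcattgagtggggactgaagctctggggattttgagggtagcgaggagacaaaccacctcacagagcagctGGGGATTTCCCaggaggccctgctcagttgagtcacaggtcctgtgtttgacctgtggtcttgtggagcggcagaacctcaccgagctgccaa

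These 3 genes behaved differently in the libraries. *Tnfrsf9* was called higher, *Tnfrsf8* was not called, and *Ltb* was below the count filter, as given above. Of the 18 members that were called higher and had a window, 1 held the motif.

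The infarcts also differed among themselves. Of the members with counts in every infarct, 7 had a highest infarct library more than 3 times the lowest, in CPM, several of them at low counts, and *Cd70*, with 0 counts in 1 infarct, has no such ratio. *Tnfrsf17* (BCMA, the receptor of long-lived plasma cells) had 40, 12, and 2 counts in infarcts and 3, 1, and 0 in contralateral cortices, a 23.3-fold range among infarcts, and its low infarct overlapped the contralateral libraries. *Cd27*, the CD70 receptor of T cells and memory B cells, had 44, 18, and 9 counts in infarcts and 6, 1, and 1 in contralateral cortices, a 5.71-fold range among infarcts without overlap between regions. *Ltb*, *Tnfrsf25*, *Tnfsf4*, *Lta*, and *Cd40lg* had ranges of 4.99, 4.28, 3.97, 3.25, and 3.23-fold among infarcts.

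Marker sums of 14 cell types were set beside these values. The 5 plasma cell markers summed to 2426, 1105, and 436 CPM in infarcts 1, 2, and 3 and to 96.8 to 115 CPM in contralateral cortices. Of the infarct sums, *Jchain* held 1999, 722, and 161 CPM and *Xbp1* 252, 236, and 166 CPM. The contralateral sums were carried by *Xbp1*, at 92.6 to 108 CPM. The 4 B cell markers used summed to 252, 115, and 97.1 CPM in infarcts, against 0.325 to 0.645 CPM in contralateral cortices. The 6 T cell markers summed to 99.3, 37.2, and 23.4 CPM in infarcts, against 0.390 to 0.626 CPM in contralateral cortices, where *Cd3d* and *Cd8a* had 0 counts. All 4 B cell and all 5 plasma cell markers were called higher, as were the 5 T cell markers that were tested, against 25.7% of all genes tested. These calls say little by themselves, because several of the markers passed the count filter through their infarct libraries alone.

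Infarct replicate 1 was the highest for *Tnfrsf17*, *Cd27*, *Ltb*, *Tnfsf4*, *Lta*, *Cd40*, and *Tnfrsf13c*. This was not particular to these members. The same infarct was the highest for others, such as *Tnfrsf1b*, *Tnfrsf1a*, *Ltbr*, *Tnfsf10*, and *Tnfsf12*. It also had the highest summed level of all members (323, 246, and 238 CPM per kilobase). Other members, among them *Tnfrsf11a*, *Fas*, and *Tnfrsf23*, were highest in infarct replicate 2. Infarct replicate 1 was also the highest for 10 of the 14 marker sums. Besides B, plasma, T, and NK cells these were those of macrophages, neutrophils, fibroblasts, mural cells, endothelium, and microglia. The range among infarcts was 5.56-fold for plasma cell, 4.24-fold for T cell, 2.59-fold for B cell, and 2.15-fold for NK cell markers, and 1.05-fold to 1.51-fold for the other 6. Single plasma cell markers ranged 12.4-fold (*Jchain*), 8.43-fold (*Mzb1*), 2.07-fold (*Prdm1*), 1.52-fold (*Xbp1*), and 1.36-fold (*Sdc1*). *Tnfrsf25* was highest in infarct replicate 3, as were the neuronal (2.65-fold), oligodendrocyte (1.65-fold), and astrocyte (1.48-fold) marker sums. The part of these cell types in the members' values was not tested.

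**Figure D5:**
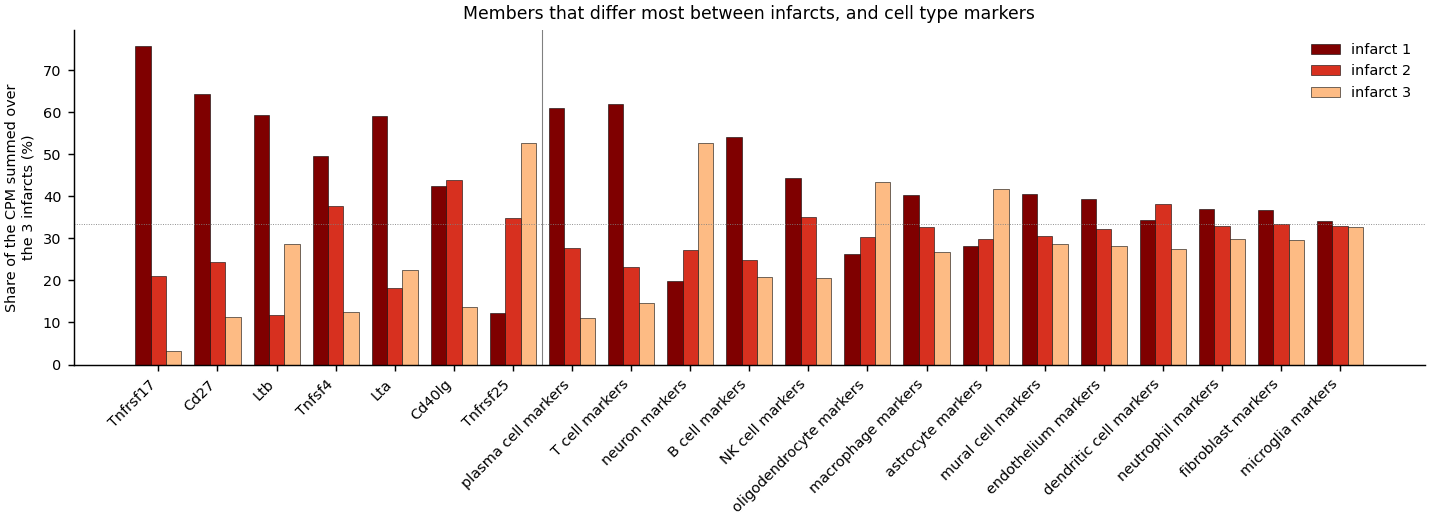
Share (%) of the CPM summed over the 3 infarcts that each infarct holds, for the 7 members with a range above 3-fold (left of the line) and for the summed markers of 14 cell types in order of their range (right); the dotted line is an equal share. Infarct 1 has the tallest bar for 5 of the members and for 10 of the cell types, and infarct 3 for *Tnfrsf25* and for neuronal, oligodendrocyte, and astrocyte markers.

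Of 5 family genes whose symbols fall outside the naming rule, 1 was upregulated, where 25.7% of all genes tested were called higher. That gene, *Eda2r*, passed the count filter through its infarct libraries alone. *Eda2r*, the receptor of an ectodysplasin isoform, had 82, 117, and 130 counts in infarcts and 11, 8, and 1 in contralateral cortices (log2 fold change 4.20 ± 0.42, edgeR adjusted *p* = 1.93e-05). *Relt* had 58, 39, and 63 counts in infarcts and 119, 98, and 89 in contralateral cortices. Its log2 fold change of -0.81 passed the adjusted *p* (0.0212, edgeR) but not the fold threshold. *Ngfr*, the p75 neurotrophin receptor, had 30, 20, and 12 counts in infarcts and 10, 11, and 10 in contralateral cortices (log2 fold change 1.13, edgeR adjusted *p* = 0.0713). *Eda* had a log2 fold change of 0.03 (edgeR adjusted *p* = 0.926), and *Edar* was not tested, with at most 11 counts in a library.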

How the data were processed

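Poly(A) RNA from 3 infarcts and 3 contralateral cortices was sequenced as stranded libraries. The deposited values are raw counts per Ensembl gene, which the authors made with HTSeq without normalization. The submitters' processing notes name bcl2fastq 2.19, Trimmomatic 0.32, STAR 2.5.2b, and GRCm38. The version, annotation, and strand option of HTSeq are not given in the sources used here. Entries for reads not assigned to 1 gene were left out of library sizes and tests, and 65.7% to 73.4% of the counted reads fell on genes, which sets the depth. Of 46078 identifiers, 45229 matched GENCODE M21 symbols.

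edgeR 4.0.16 under R 4.3.3 was used for all tests of counts (filterByExpr by region, TMM, glmQLFit with robust dispersions, glmQLFTest, region as the only term). *p* values were Benjamini-Hochberg adjusted over all 15554 genes tested, with calls at an adjusted *p* under 0.05 and a log2 fold change beyond 1. Standard errors were derived from the fold change and its F statistic. In simulated counts, 181 of 200 genes changed 4-fold were recovered with 8 false calls among 15373 genes. The changed genes were drawn only from those with enough expected counts in the smallest library. Recovery at the low counts of most ligands was therefore not measured. Levels per kilobase used the union of annotated exons. Counting intervals and floors cover counting error only.

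All 41 members were accounted for. Values per library were given for members lower or not called, the 10 largest called log2 fold changes, the 8 highest levels per kilobase in infarcts, their known partners, members with an infarct range over 3-fold, and the largest signaling changes. Other members were added for completeness. Members, pairs, and lists were chosen with earlier results of these data known. Alternatives were DESeq2 1.42.0, voom in limma 3.58.1, other scalings and filters, a replicate block, and each library left out. Tables and plots used Python 3.11.15, pandas 2.3.3, SciPy 1.17.1, and matplotlib 3.10.9. Of the B cell markers, 1 of the planned list is not reported here and was left out of the sums.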

Additional observations from a re-analysis of the deposited data

How the results depend on the processing

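The count of members called higher stayed at 24 under RLE, upper-quartile, and total scaling and under limma voom, was 33 without a filter and 33 with DESeq2, and was 10 of 15 tested members when at least 10 counts were required in every library (21.6% of all genes so tested higher, 19.4% lower). With 1 library left out it ranged from 24 to 31, and 0 members were called lower in each of these fits. Only 10 of the 24 called members could be tested at that stricter filter, and all 10 kept their call. In the other 13 alternatives 22 of the 24 kept their call, the exceptions being *Tnfrsf12a* and *Tnfrsf4*. Signaling genes called higher ranged from 25 to 28 and called lower stayed at 1 with a library left out. The count of lower signaling genes was 0 with library totals and 2 without a fold threshold. Direction turned with a library left out for 3 members, none of them called: *Tnfrsf18* (range -0.082 to 0.65, lowest without contralateral replicate 3), *Tnfrsf25* (-1.09 to 0.081, highest without contralateral replicate 2), and *Tnfrsf21* (-0.17 to 0.11, above 0 at 0.11 without infarct replicate 2 and at 0.017 without contralateral replicate 2). *Tnfrsf21* was also 0.15 with library totals. The cause was not tested. Deviations of same-numbered libraries from their region means correlated at -0.19, 0.10, and 0.0011. With 3 libraries per region and different tissues, these values cannot tell whether equal numbers share a mouse. A fit with the replicate number as a block called 24 members higher and 0 lower, and 28 signaling genes higher and 1 lower. Low counts limit most ligands, of which 10 could not be tested.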
